A study of Mus musculus with 24 samples.

Results

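The 7 haemoglobin chain genes Hba-x, Hba-a1, Hba-a2, Hbb-y, Hbb-bh1, Hbb-bs and Hbb-bt, with Alas2, were followed through 3 comparisons of mutant with control cells sorted from mouse embryonic brains. They are 8 genes of the 25471 that the 3 deposited tables list in all. They were taken by name, and the group means that are described below also led to their choice, so these values are given as a description with no test of their own. Of the 8, all had values in E13.5 endothelial cells, 6 had values in E13.5 pericytes and 4 in E11.5 pericytes. Hba-a1 at E11.5 and Hbb-y in E13.5 pericytes were listed without a value. Hba-a2, Hbb-bs and Hbb-bt at E11.5 and Hbb-bh1 in E13.5 pericytes were not listed, so no value could be read for them.

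All embryos carried the Pdgfrb-Cre driver, which is active in pericytes and other mural and mesenchymal cells, a ZsGreen reporter (Zs/+) and at least 1 floxed Alk5 allele. Alk5 is Tgfbr1, the type I TGF-beta receptor. Mutants were Alk5(flox/flox) and are marked GMH-IVH in the labels, the usual short form for germinal matrix and intraventricular haemorrhage, and controls were Alk5(flox/+) and are marked normal. The 24 libraries came from pericytes at E11.5 (4 mutant and 4 control), pericytes at E13.5 (4 mutant and 4 control) and endothelial cells at E13.5 (3 mutant and 5 control). The sources used here do not give the markers of the sort, the sex of the embryos or whether samples came from separate litters. Endothelial cells were compared by the genotype of the embryo, and whether any of them carried the recombined allele was not tested. Values per library and read depth were not analysed here, and each mean below is the authors' group mean of normalized read counts with no SD. The standard error (SE) of a log2 ratio was worked back from the deposited ratio and p. A gene was called when the authors' deposited false discovery rate (FDR), printed as the adjusted p, was under 0.05.

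Red cells of the mouse embryo come in a primitive lineage, born in the yolk sac, and a later definitive lineage, born in the fetal liver. Haemoglobin joins a pair of alpha-type chains with a pair of beta-type chains around haem. Primitive cells use the embryonic alpha-type gene Hba-x (zeta) and the embryonic beta-type genes Hbb-y (epsilon-y) and Hbb-bh1 (beta-h1) beside the adult alpha genes, and as they mature Hbb-bh1 gives way to Hbb-y. Definitive cells use the adult alpha genes Hba-a1 and Hba-a2 and the adult beta genes Hbb-bs and Hbb-bt. Alas2 encodes the red-cell form of aminolevulinate synthase, the first enzyme of haem synthesis. Brain pericytes and endothelial cells are not sites of red cell formation.

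In the GENCODE annotation of mm10, the alpha cluster lies on the plus strand of chromosome 11, with Hba-x at chr11:32276400-32278116, Hba-a1 at chr11:32283511-32284465 and Hba-a2 at chr11:32296489-32297298. The beta cluster lies on the minus strand of chromosome 7, with Hbb-y at chr7:103851749-103853216, Hbb-bh1 at chr7:103841637-103843164, Hbb-bs at chr7:103826534-103828096 and Hbb-bt at chr7:103812524-103813996. Alas2 is X-linked, at chrX:150547375-150570638 on the plus strand. Each of the 7 haemoglobin genes has 3 exons and Alas2 has 11. The 8 genes thus sit on 3 chromosomes. As a description, the 130 bases before the RefSeq start are shown, 5′ to 3′ on the gene's own strand, in the build GRCm38.p6. Capitals mark 4 kinds of short motif described after the sequences. The windows are chr11:32276470-32276599 (plus strand) for Hba-x, chr11:32283542-32283671 (plus strand) for Hba-a1, chr7:103853208-103853337 (minus strand) for Hbb-y, chr7:103827929-103828058 (minus strand) for Hbb-bs, chr7:103813924-103814053 (minus strand) for Hbb-bt and chrX:150547287-150547416 (plus strand) for Alas2.
Hba-x: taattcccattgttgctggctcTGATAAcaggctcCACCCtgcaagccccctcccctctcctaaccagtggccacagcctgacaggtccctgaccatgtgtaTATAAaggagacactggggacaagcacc
Hba-a1: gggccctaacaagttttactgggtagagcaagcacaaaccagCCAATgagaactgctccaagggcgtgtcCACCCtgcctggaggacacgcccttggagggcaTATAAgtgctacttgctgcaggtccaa
Hbb-y: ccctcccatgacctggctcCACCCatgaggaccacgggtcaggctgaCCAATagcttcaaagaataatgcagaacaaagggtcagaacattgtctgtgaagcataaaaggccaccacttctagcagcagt
Hbb-bs: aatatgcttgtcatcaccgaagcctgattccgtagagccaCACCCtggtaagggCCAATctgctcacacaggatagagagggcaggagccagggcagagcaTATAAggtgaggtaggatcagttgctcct
Hbb-bt: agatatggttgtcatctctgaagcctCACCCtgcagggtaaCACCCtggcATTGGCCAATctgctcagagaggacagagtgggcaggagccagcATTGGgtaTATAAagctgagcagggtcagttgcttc
Alas2: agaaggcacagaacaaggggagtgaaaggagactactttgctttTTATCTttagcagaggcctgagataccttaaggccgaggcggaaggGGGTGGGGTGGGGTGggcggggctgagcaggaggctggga
A promoter was found for 7 of the 8 genes, all but Hbb-bh1. The table's promoters of Hba-a1 and Hba-a2 share an unbroken identical run of 297 bases, so Hba-a1 stands for both.

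The motifs searched were a GATA type (spelled AGATAA or with a final G as AGATAG, and with a first T as TGATAA or also with both changes as TGATAG), the CACCC box and the CCAAT box on both strands, and the TATAA box on the gene's strand only. On the opposite strand CACCC reads GGGTG, while CCAAT reads ATTGG there and the GATA type of the Alas2 window reads TTATCT. No marked motifs overlapped, although some adjoin. All 7 windows held CACCC, once in 5 of them, 2 times in Hbb-bt and 3 times in Alas2, against 33.8% of 32454 mouse promoters cut to the same length. CCAAT was found in Hba-a1, Hba-a2, Hbb-y, Hbb-bs and Hbb-bt, the last with 3 copies, against 22.3% of all promoters. TATAA was found in Hba-x, Hba-a1, Hba-a2, Hbb-bs and Hbb-bt, against 9.06% of all promoters with it anywhere in the window. In these genes it stood 23 to 30 bases before the start. The GATA type was found in Hba-x, from 108 to 103 bases before the start, and in Alas2, from 86 to 81 bases before it, against 13.8% of all promoters. GATA factors, KLF factors and NF-Y are known to bind motifs of the first 3 kinds. These matches describe letters in a window and say nothing of binding in these cells.

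In endothelial cells of mutant embryos at E13.5, every haemoglobin gene and Alas2 stood far above its level in control endothelial cells. The ratios lay between 12.2-fold and 33.0-fold, by the authors' deposited table, with a median log2 ratio of 4.27, against -0.013 over all genes tested. All 8 of 8 genes were called higher in mutants, in a comparison that called 5.11% of its genes higher and 7.30% in either direction, and nothing is read from that count, since the same contrast led to the choice of the genes. Together the 7 haemoglobin genes took 7.45% of the summed group means in mutants and 0.302% in controls, a 24.7-fold difference in share. In bulk sorted samples, more red cells or red cell RNA among the sorted cells and more RNA of these genes per cell cannot be told apart.

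Among the alpha-type genes in the authors' deposited table, Hba-a1, an adult alpha gene, had a mean of 632622 in mutant endothelial cells and 22783 in control endothelial cells. That is 27.8-fold, with a 95% interval of 8.17 to 94.4 from the implied SE of 0.90 (log2 ratio 4.80, DESeq2 adjusted p = 2.18e-05). Hba-a2, its near-identical neighbour, had means of 373760 for mutants and 14069 for controls, 26.6-fold, in the same deposited table. The embryonic alpha-type gene Hba-x had means of 116883 for mutants and 4917 for controls in the authors' deposited table, 23.8-fold with an interval of 6.37 to 88.7 (DESeq2 adjusted p = 2.22e-04). The 3 alpha-type genes thus had log2 ratios between 4.57 and 4.80, within 1 SE of each other.

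Among the beta-type genes the embryonic Hbb-y had the highest level and ratio. Its means in the authors' deposited table were 495119 in mutant endothelial cells and 15002 in control endothelial cells, 33.0-fold with an interval of 8.47 to 129 (log2 ratio 5.04, SE 1.00, DESeq2 adjusted p = 6.99e-05). Hbb-bh1, the embryonic gene that precedes Hbb-y in primitive cells, was lower, with means of 5235 for mutants and 345 for controls in the deposited table, and its ratio of 15.2-fold had an interval of 3.67 to 63.0 (DESeq2 adjusted p = 0.00588). The adult beta genes had smaller ratios than Hbb-y. Hbb-bs had means of 46351 for mutants and 3800 for controls in the authors' deposited table, 12.2-fold with an interval of 4.36 to 34.1. Hbb-bt had means of 43124 for mutants and 2769 for controls in the authors' deposited table, 15.6-fold with an interval of 5.37 to 45.2. The intervals of all 4 beta-type genes overlap, and whether the ratios of the genes differ from each other was not tested, because the genes share their libraries and single libraries were not analysed here.

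Alas2 followed the haemoglobin genes at a far lower level. Its mean in the authors' deposited table was 2932 in mutant endothelial cells and 212 in control endothelial cells, 13.8-fold with an interval of 4.68 to 40.9 (log2 ratio 3.79, SE 0.80, DESeq2 adjusted p = 1.97e-04).

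**Figure D1:**
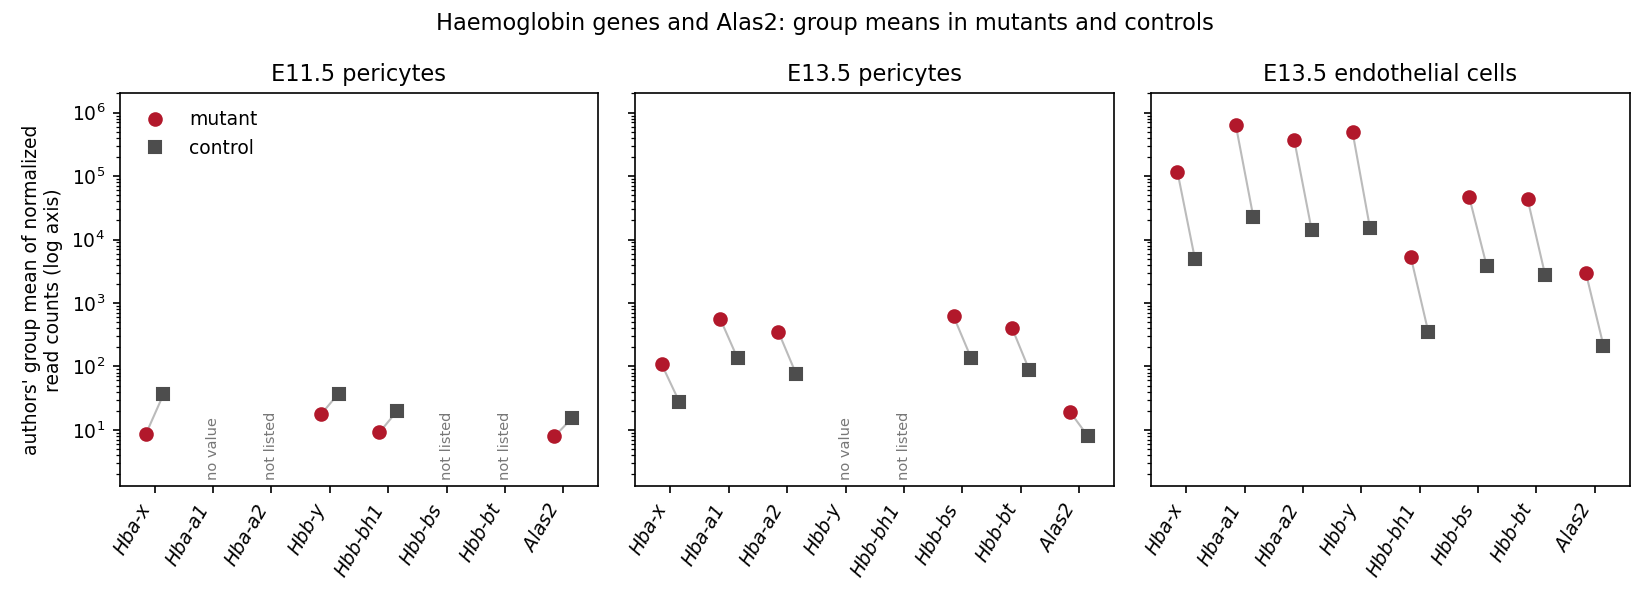
Authors' group means of normalized read counts (log axis) of the 7 haemoglobin genes and Alas2 in pericytes at E11.5 and E13.5 and endothelial cells at E13.5, with mutants as circles and controls as squares joined by a line per gene. Each table has its own scale, and in E13.5 endothelial cells all 8 mutant means lie above their control means, from 12.2-fold for Hbb-bs to 33.0-fold for Hbb-y.

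Per kilobase of transcript, the 4 highest genes of mutant endothelial cells, of 19981 genes with a length, were Hba-a1, Hbb-y, Hba-a2 and Hba-x in that order. Hbb-bs ranked 12 and Hbb-bt ranked 18, with Hbb-bh1 at rank 196 and Alas2 at rank 1693. In control endothelial cells the order of the first 3 per kilobase was Hba-a1 at rank 21, Hba-a2 at rank 33 and Hbb-y at rank 37, followed by Hba-x at 233, Hbb-bs at 241, Hbb-bt at 441, Hbb-bh1 at 3679 and Alas2 at 10174. Haemoglobin mRNA was thus among the abundant transcripts of control endothelial samples too. The spread between libraries that would show which neighbours in this order differ was not analysed here.

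The implied SE of the 8 genes in endothelial cells, 0.76 to 1.05 on the log2 scale, was large for genes at such levels. The median implied SE was 0.129 among the top 10% of tested genes by level, and outside these 8 genes only 2 of those 1814 genes had an SE of at least 0.75. Whether the mutant mean was carried by 1 of the 3 mutant libraries was not tested.

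The make-up of the haemoglobin mRNA was then compared between the groups, as levels per kilobase of transcript. Among alpha-type genes the embryonic Hba-x made 8.46% in mutant endothelial cells and 9.57% in control endothelial cells. Among beta-type genes the embryonic pair made 85.4% in mutants and 70.8% in controls, nearly all of it Hbb-y, with 84.5% in mutants and 69.2% in controls. Hbb-bh1 made 0.922% of the beta-type level in mutants and 1.64% in controls. Adult alpha exceeded adult beta 11.7-fold in mutants and 5.81-fold in controls. All alpha-type together stood at 1.86 times all beta-type in mutants and 1.87 times in controls. Over the 7 genes the embryonic share was 35.3% in mutants and 30.9% in controls. These shares come from group means, so neither their spread between libraries nor the difference between mutants and controls was tested.

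**Figure D2:**
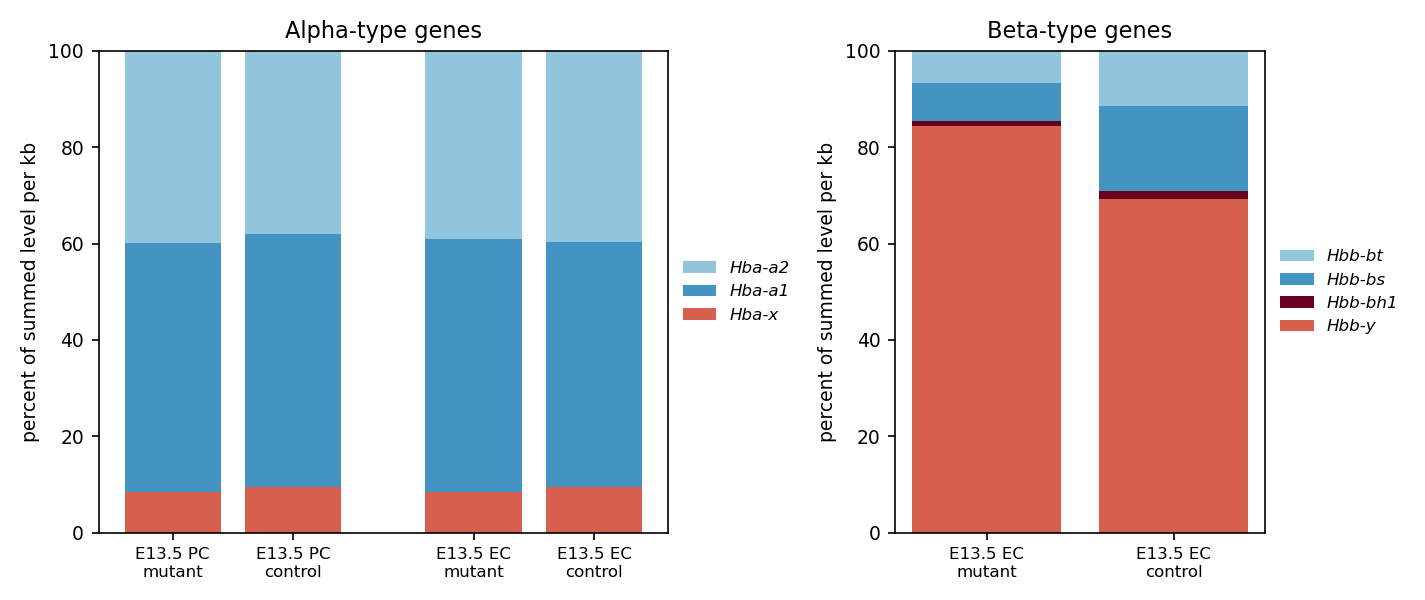
Share of each gene, in percent of the summed level per kilobase, among alpha-type genes in pericytes (PC) and endothelial cells (EC) at E13.5 and among beta-type genes in E13.5 endothelial cells, with each mutant bar left of its control bar. Embryonic genes are in red tones and adult genes in blue tones, and Hbb-y takes 84.5% of the beta-type bar in mutants and 69.2% in controls, while Hba-x takes 8.46% to 9.57% of the alpha-type bars of endothelial cells.

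Several of these genes share sequence, which bears on how reads could be assigned. The coding sequences of Hba-a2 and Hba-a1 differ at 1 of 426 bases, and those of Hbb-bt and Hbb-bs at 1 of 441 bases. Of all 50-base windows of the Hba-a2 transcript, 86.9% occur in Hba-a1, and 58.3% of those of Hbb-bt occur in Hbb-bs. No source used here gives the counting step, so the split within each adult pair is uncertain. Hba-a1 made 57.3% of the adult alpha level in mutant endothelial cells and 56.2% in control endothelial cells, and Hbb-bs made 54.6% of the adult beta level in mutants and 60.6% in controls. The embryonic genes shared no 50-base window with the adult genes they were compared with, their coding sequences being 65.7% identical between Hba-x and Hba-a1, 74.4% between Hbb-y and Hbb-bs and 74.8% between Hbb-bh1 and Hbb-bs. Their reads are therefore less open to mixing with those of the adult genes.

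Other genes of the family were listed in endothelial cells. The theta genes Hbq1a and Hbq1b, which lie in the alpha cluster, both rose. Hbq1a averaged 142.5 in mutants and 12.2 in controls by the authors' deposited table, a log2 ratio of 3.54 (SE 0.67, DESeq2 adjusted p = 2.72e-05). Hbq1b averaged 404 in mutants and 38.8 in controls, from the authors' deposited table, a log2 ratio of 3.38 (SE 0.55, DESeq2 adjusted p = 4.10e-07). Hba-ps3, a processed pseudogene at chr15:56171988-56172389 (minus strand) whose sequence is 84.3% identical to Hba-a1, had means of 171.9 for mutants and 4.96 for controls in the authors' deposited table, a log2 ratio of 5.12 (SE 0.87, DESeq2 adjusted p = 2.26e-06). It shares no 50-base window with Hba-a1, and whether its reads came from the pseudogene was not tested. Cytoglobin (Cygb), an oxygen-binding globin outside the red cell, had means of 20.5 for mutants and 12.2 for controls in the authors' deposited table and was not called. The list holds 11 further family genes, of which these 4 were tested in endothelial cells and 3 passed, while Cygb was the 1 tested at each pericyte stage and was not called there.

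In pericytes at E13.5 the mutant means of the 6 genes with a value also lay above the control means, at levels far below those of endothelial cells. Hba-a1 averaged 569 in mutants and 134 in controls by the authors' deposited table. Hba-a2 averaged 349.9 in mutants and 77.2 in controls, again from the authors' deposited table. The ratios of this adult alpha pair were 4.24-fold and 4.53-fold, and those of the adult beta pair were close to them. Hbb-bs averaged 619 in mutants and 137 in controls by the authors' deposited table, 4.51-fold. Hbb-bt averaged 409 in mutants and 86.8 in controls, 4.71-fold, from the authors' deposited table. The embryonic alpha-type gene and Alas2 had the smallest ratios of the 6. Hba-x averaged 107.6 in mutants and 27.9 in controls by the authors' deposited table, 3.86-fold. Alas2 averaged 19.0 in mutants and 8.0 in controls, 2.38-fold, in the authors' deposited table. Per kilobase Hbb-bs was the highest of the 6, at rank 1916 in mutants and rank 8150 in controls of 23129 genes with a length, and Alas2 the lowest, at rank 18818 in mutants and rank 20941 in controls. The implied SE of the 6 log2 ratios was 0.64 to 1.12, against a median of 0.123 over all tested genes, and the intervals of 3 of the 6 ratios (Hba-a1, Hbb-bs and Hbb-bt) excluded 1. None of the 6 was called, with DESeq2 adjusted p of 1.00 for each and unadjusted p of 0.0275 to 0.0599, of which 3 were under 0.05, in a comparison that called 0.224% of its genes higher, 0.164% lower and 0.388% in either direction. The median log2 ratio of the 6 was 2.13, against 0.0012 over all genes tested.

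The 5 haemoglobin genes with a value took 0.00819% of the summed means in mutant pericytes and 0.00182% in control pericytes at E13.5, a 4.49-fold difference. Beside these values, the endothelial shares are 7.45% in mutants and 0.302% in controls, on tables that were normalized separately and with 7 genes in place of 5. Hba-x made 8.51% of the alpha-type level per kilobase in mutant pericytes and 9.5% in control pericytes, near the shares given for endothelial cells. Adult beta stood at 1.08 times adult alpha in mutant pericytes and 1.03 times in control pericytes, whereas in endothelial cells adult beta was 0.0856 times adult alpha in mutants and 0.172 times in controls. This ratio per kilobase differed more between the cell types than the Hba-x share did, and neither difference was tested. In the same comparison Xist, the RNA of the inactive X chromosome, had means of 5.73 for mutants and 36145 for controls in the authors' deposited table, so a difference in the sex of the embryos and the genotype cannot be told apart in E13.5 pericytes. Alas2 is the X-linked gene among the 8.

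In pericytes at E11.5 the 4 genes with a value had lower means in mutants than in controls, at low levels in both groups. Hba-x had a mean of 8.66 for mutants and 36.4 for controls in the authors' deposited table, 4.2-fold lower in mutants, with a log2 ratio of -2.07 (SE 0.86, DESeq2 adjusted p = 0.165). Hbb-y had means of 17.6 for mutants and 37.4 for controls in the authors' deposited table, a log2 ratio of -1.09 (SE 0.73, DESeq2 adjusted p = 0.433). Hbb-bh1 had means of 9.11 for mutants and 19.7 for controls in the authors' deposited table, a log2 ratio of -1.11 (SE 0.88, DESeq2 adjusted p = 0.517). Alas2 had means of 7.88 for mutants and 15.3 for controls in the authors' deposited table, a log2 ratio of -0.96 (SE 0.47, DESeq2 adjusted p = 0.259). None of the 4 was called, in a comparison that called 2.70% of its genes lower and 3.35% in either direction, while the unadjusted p of Hba-x and Alas2, 0.0155 and 0.0413, were under 0.05. The intervals of Hbb-y and Hbb-bh1 included no difference, at 0.174 to 1.27-fold and 0.140 to 1.53-fold. The median log2 ratio was -1.10, against -0.0044 over all genes tested.

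The 3 embryonic haemoglobin genes with a value took 0.000224% of the summed means in mutant pericytes and 0.000611% in control pericytes at E11.5. Per kilobase, Hbb-y was the highest of the 3 in both groups, at 27.8 in mutants and 59.1 in controls, which is rank 13799 in mutants and rank 11866 in controls of 21270 genes with a length. Hbb-bh1 stood at 14.9 in mutants and 32.1 in controls and Hba-x at 10.8 in mutants and 45.4 in controls, so their order differed between the groups. Since every adult haemoglobin gene lacked a value here, no embryonic share could be given for E11.5.

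**Figure D3:**
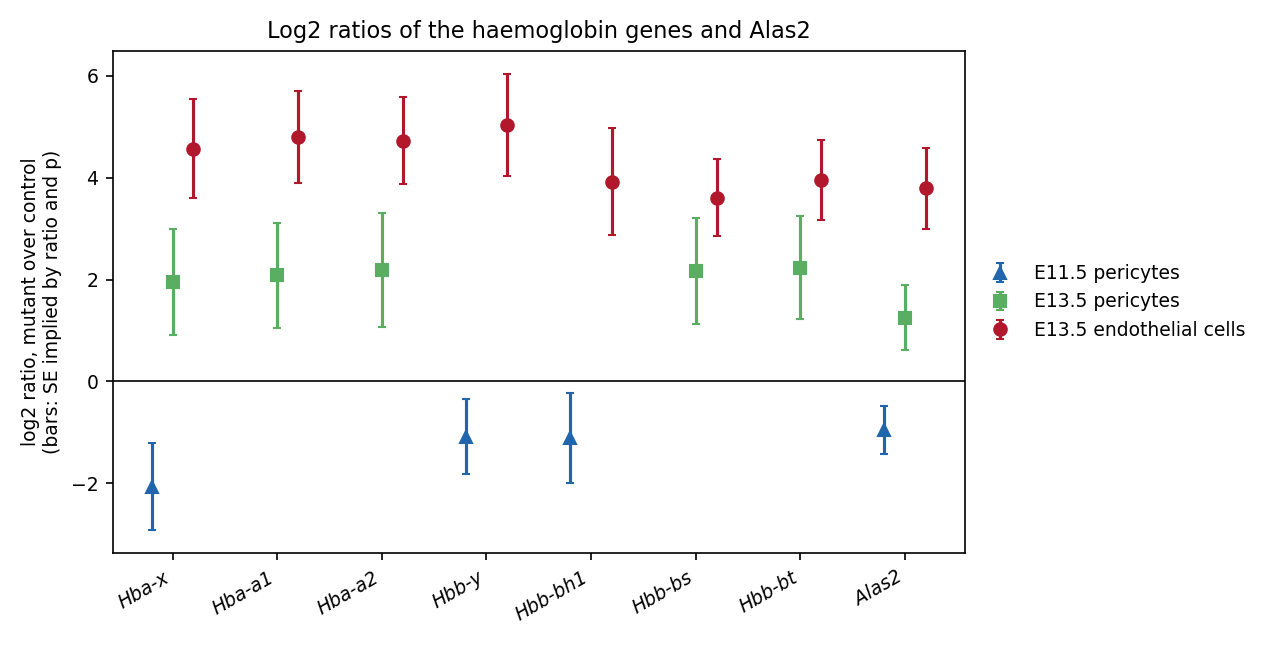
Log2 ratio of mutant over control for each of the 8 genes in each comparison with a value, with bars of 1 SE as implied by the authors' ratio and p. Endothelial ratios lie between 3.61 and 5.04, E13.5 pericyte ratios between 1.25 and 2.24 and E11.5 pericyte ratios between -2.07 and -0.96.

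Across the 3 comparisons, which share no library, only Hba-x and Alas2 had a value in every table, and their log2 ratios were negative at E11.5 and positive at E13.5. For Hba-x the log2 ratios were -2.07 and 1.95 in pericytes at E11.5 and E13.5 and 4.57 in endothelial cells. For Alas2 they were -0.96, 1.25 and 3.79 in that order. No test of these differences is given, as the genes were chosen on them.

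Genes of red cells outside the 8 were read from 4 lists with 61 genes. Membrane and skeleton genes held most of the calls in endothelial cells, while no gene of haem synthesis passed the test there. In endothelial cells 56 of the 61 were tested, 10 were called higher in mutants and 1 lower, or 17.9% higher and 1.79% lower, against 5.11% and 2.19% of all genes, and their median log2 ratio was 0.47. At E13.5, 42 were tested in pericytes and 0 were called by the authors' DESeq2 test, against 0.388% of all genes in either direction. Of the 42, 2 had an unadjusted p under 0.05, and the median log2 ratio was -0.0099. At that share, 0 calls among so few genes, here and in the lists below, is not read as a result. At E11.5, 40 were tested, 1 was called higher and 1 lower, or 2.5% each, against 0.642% and 2.70% of all genes, with a median of -0.11.

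Of the 15 red cell membrane and skeleton genes tested in endothelial cells, 6 rose in mutants and 0 fell, with a median log2 ratio of 1.59. Rhd, of the Rh complex of the red cell membrane, averaged 189 in mutants and 14.3 in controls by the authors' deposited table, a log2 ratio of 3.73 (SE 0.76, DESeq2 adjusted p = 1.07e-04). Rhag, its partner in that complex, averaged 86.0 in mutants and 10.9 in controls, from the authors' deposited table, a log2 ratio of 2.98 (SE 0.90, DESeq2 adjusted p = 0.0188). Slc4a1, the band-3 anion exchanger, had means of 624 for mutants and 89.3 for controls in the authors' deposited table, 6.98-fold (DESeq2 adjusted p = 0.0220). Ermap, an erythroid membrane protein, and Epb42, a skeleton protein, rose as well in the authors' deposited table, 11.6-fold and 3.46-fold. None of the list was called in pericytes, where 7 were tested at E11.5 and 8 at E13.5. Of those tested, 1 gene at E11.5 and 0 genes at E13.5 had an unadjusted p under 0.05. Slc4a1 and Rhd had values in E13.5 pericytes but no deposited FDR, so these counts leave them out. Slc4a1 averaged 8.26 in mutants and 2.61 in controls there by the authors' deposited table, 3.17-fold. Rhd averaged 11.4 in mutants and 8.55 in controls there, 1.33-fold. Slc4a1 had an unadjusted p under 0.05 and Rhd did not.

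Of the 14 genes of haem synthesis and its mitochondrial supply, 0 were called in endothelial cells by the authors' DESeq2 test, 3 had an unadjusted p under 0.05, and the median log2 ratio was 0.19. Fech, which inserts iron into haem, had means of 2504 for mutants and 1681 for controls in the authors' deposited table (DESeq2 adjusted p = 0.191). Alas1, the housekeeping form of the enzyme that Alas2 encodes, had means of 2307 for mutants and 2478 for controls in that deposited table (DESeq2 adjusted p = 0.807). The Alas2 log2 ratio of 3.79 lay outside the range of these 14, -0.10 to 0.58, but Alas2 was chosen with its ratio known. Of the 14, 12 had ratios above 1. Their control means ran from 132 to 2478, against 212 for Alas2, and how much of each came from red cells was not tested. With 7.30% of all genes called in this comparison, 0 of 14 is not read as a result about the list. At E11.5 Alad, the second enzyme of the pathway, rose 1.34-fold in mutant pericytes and Glrx5, which serves iron-sulphur cluster assembly, fell to 207 in mutants, against 464 in controls (authors' deposited table, DESeq2 adjusted p = 0.0401 and 0.0365). In E13.5 pericytes 0 of the 14 were called and 1 had an unadjusted p under 0.05.

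Of 9 erythroid transcription factors, Nfe2 alone passed in endothelial cells, with means of 2125 for mutants and 1030.3 for controls in the authors' deposited table, 2.06-fold (DESeq2 adjusted p = 0.00691). All 9 had ratios above 1, with a median log2 ratio of 0.50. The 12 platelet and megakaryocyte markers had a median of 0.94 in the same comparison. The part of platelets and megakaryocytes in the values of these 9 factors was not tested. Gata1 and Klf1, factors that drive globin transcription, did not pass. Gata1 averaged 1621 in mutants and 921 in controls by the authors' deposited table, 1.76-fold (DESeq2 adjusted p = 0.0863). Klf1 averaged 225 in mutants and 95.01 in controls, from the authors' deposited table, 2.37-fold (DESeq2 adjusted p = 0.0538). In pericytes 0 of 6 and 0 of 7 tested factors passed at E11.5 and E13.5, with 4 and 1 at an unadjusted p under 0.05. Of 18 other erythroid genes tested in endothelial cells, 3 rose in mutants, among them Ube2l6 and Isg20 at 6.94-fold and 2.55-fold by the authors' deposited table. Tfrc, the transferrin receptor, fell to 2857 in mutants, against 3884 in controls, in the authors' deposited table (log2 ratio -0.44, SE 0.15, DESeq2 adjusted p = 0.0484). How much of the Tfrc level came from red cells was not tested. In pericytes 0 of the 13 tested at each stage passed, with 2 at E11.5 and 0 at E13.5 at an unadjusted p under 0.05.

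**Figure D4:**
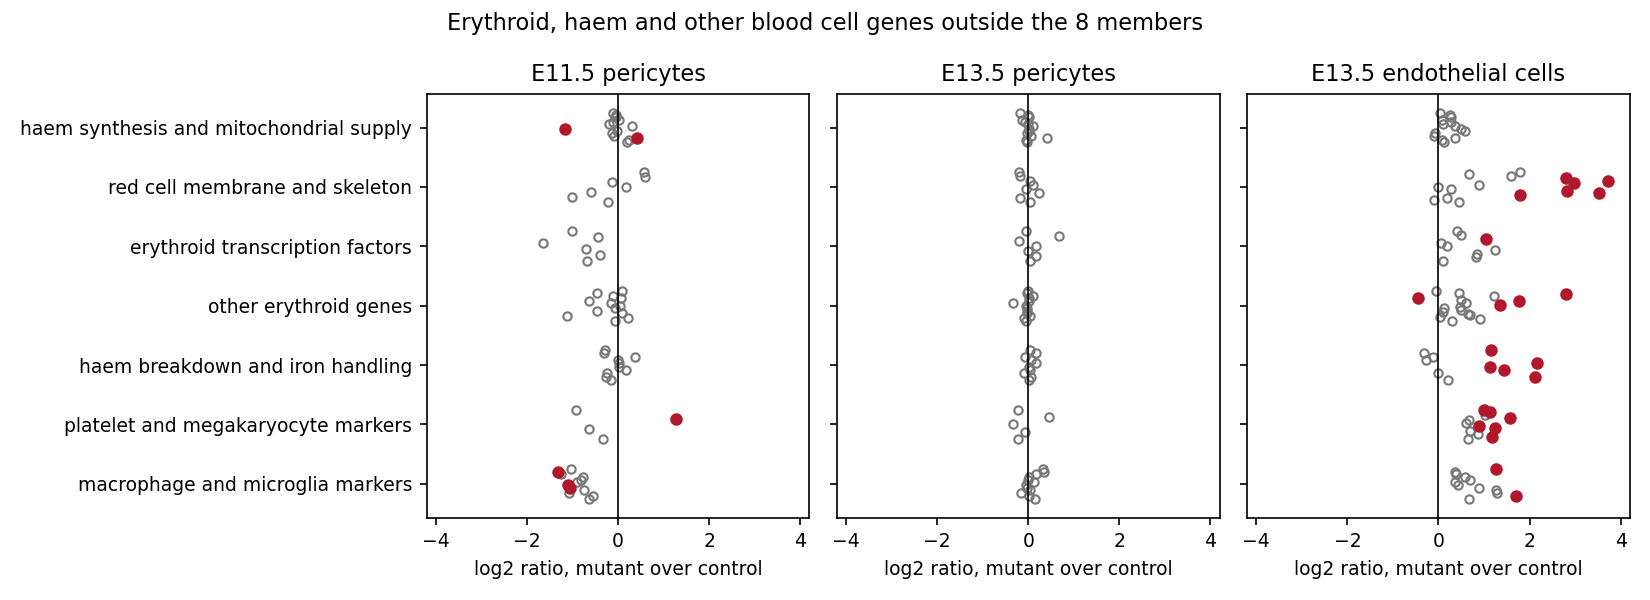
Log2 ratio of mutant over control for genes outside the 8, by list (from the top) and comparison, with each circle 1 tested gene and red filled circles those with a deposited FDR under 0.05. In E13.5 endothelial cells 6 membrane and skeleton genes are called higher and 0 haem synthesis genes are called, and in E13.5 pericytes 0 genes of these lists are called.

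The regulators known for switching between embryonic and adult globin genes were read beside the globin make-up. In endothelial cells 1 of 12 was called, in a comparison that called 7.30% of all its genes, and nothing is read from that count. That gene, Igf2bp1, is an RNA-binding partner of fetal-type expression. It fell to 7776 in mutants, against 10222 in controls, in the authors' deposited table (log2 ratio -0.39, DESeq2 adjusted p = 0.0497). Bcl11a, the repressor of embryonic and fetal beta-type genes, had means of 699.8 in mutant endothelial cells and 598 in control endothelial cells in the authors' deposited table and was not called (DESeq2 adjusted p = 0.812). In E11.5 pericytes, where the embryonic genes were at low levels, Bcl11a fell to 1026 in mutants, against 1754 in controls, and Lin28b, a let-7 antagonist of early development, rose to 939 in mutants, against 424 in controls, in the authors' deposited table (DESeq2 adjusted p = 3.91e-04 and 3.84e-04). Igf2bp1 and Igf2bp3 rose there too, 1.64-fold and 1.42-fold by the authors' deposited table. In E13.5 pericytes 0 of 12 were called, with 2 at an unadjusted p under 0.05. All of these genes also act outside red cells.

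Of the genes that break down haem and handle its iron, 5 of 10 tested rose in mutant endothelial cells and 0 fell. Of all genes, 5.11% were called higher and 2.19% lower in that comparison. The median log2 ratio of the 10 was 0.68. Hmox1, the enzyme that opens the haem ring, had means of 4250 for mutants and 955 for controls in the authors' deposited table, 4.45-fold (log2 SE 0.29, DESeq2 adjusted p = 1.73e-10). Blvrb, which reduces biliverdin, rose 4.37-fold, the ferritin chains Fth1 and Ftl1 rose 2.72-fold and 2.20-fold, and the haem transporter Slc48a1 rose 2.23-fold, each in the authors' deposited table. In pericytes 0 of 10 were called at either stage by the authors' DESeq2 test, and 0 had an unadjusted p under 0.05.

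Markers of other blood cells moved in the same endothelial samples, in a comparison that called 5.11% of all genes higher and 2.19% lower. Of 12 platelet and megakaryocyte markers, 6 rose in mutants (Gp9, Pf4, Treml1, Gp1bb, Tubb1 and Itga2b), all 12 had ratios above 1, and their summed means were 37231 for mutants and 19002 for controls. Pf4, a platelet chemokine, had means of 5418 for mutants and 1821 for controls in the authors' deposited table, 2.98-fold (DESeq2 adjusted p = 5.58e-04). Of 12 macrophage and microglia markers, Tyrobp and Aif1 rose, all 12 had ratios above 1, and the summed means were 23917 for mutants and 14563 for controls. No marker with a value was at 0 in either group of any comparison. The part of platelets and macrophages in the haemoglobin values was not tested.

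In E11.5 pericytes, where the 4 genes with a value had lower means in mutants, 3 of 12 macrophage markers fell (Csf1r, Spi1 and C1qc), all 12 had ratios below 1, and their summed means were 1316 for mutants and 2506 for controls. The E11.5 comparison called 0.642% of all genes higher and 2.70% lower. Platelet markers had summed means of 746 for mutants and 467 for controls, with Itgb3 the 1 of 4 tested that rose. The sum is led by Itgb3, an integrin not limited to platelets. In E13.5 pericytes 0 of 12 macrophage markers and 0 of 5 platelet markers were called, with 0 and 1 at an unadjusted p under 0.05. Their summed means were 5857 in mutants and 5708 in controls (macrophages) and 689 in mutants and 608 in controls (platelets). Their part in the haemoglobin values was not tested.

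The labelled cell types were checked by their markers. Of all genes, 0.642% were called higher and 2.70% lower in E11.5 pericytes. In E13.5 pericytes these shares were 0.224% and 0.164%, and in endothelial cells 5.11% and 2.19%. The 12 endothelial markers summed to 130478 in mutant endothelial cells and 150946 in control endothelial cells, with Kdr, a VEGF receptor, called lower, and the pericyte markers to 1205 in mutants and 1828 in controls with 0 of 10 called by the authors' DESeq2 test and 2 at an unadjusted p under 0.05. In E11.5 pericytes the pericyte markers summed to 10983 for mutants and 13775 for controls (5 of 11 lower, among them Rgs5) and the endothelial markers with a value to 649 in mutants and 1221 in controls (Erg lower, 1 of 8). In E13.5 pericytes the sums were 24188 in mutants and 23958 in controls for pericyte markers (Cox4i2 higher and Rgs5 lower, of 11). For endothelial markers they were 3562 in mutants and 3819 in controls (Erg lower, 1 of 10). Pecam1, Cldn5 and Tie1 at E11.5, and Pecam1 and Cldn5 in E13.5 pericytes, were listed without a value, so the sums leave them out. The sum of endothelial markers in E13.5 pericytes is led by Erg, with means of 1203 for mutants and 1868 for controls in the authors' deposited table. Of the 10 markers, 8 had ratios above 1 and 2 had ratios below 1. In endothelial cells Erg had a mean of 741 in each group, on a table that was normalized separately. Fibroblast markers were called in E11.5 pericytes alone, where 4 of 8 were lower. Elsewhere 0 of 8 were called, with 2 in E13.5 pericytes and 0 in endothelial cells at an unadjusted p under 0.05. In E11.5 pericytes the fibroblast markers summed to 74912 in mutants and 99434 in controls. In E13.5 pericytes they summed to 319113 in mutants and 304996 in controls. Both pairs of sums lay above those of the pericyte markers, and the share of fibroblasts among the sorted cells was not tested. Of the neural markers 0 were called in any comparison, with 1, 1 and 2 at an unadjusted p under 0.05. Tgfbr1 itself had log2 ratios of 0.43, 0.031 and -0.11 at E11.5, at E13.5 and in endothelial cells, from the authors' deposited table, and was called in none (DESeq2 adjusted p = 0.399, 1.00 and 0.859). Which exons these counts cover relative to the floxed part is given in no source used here, so the values do not check the genotype labels.

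The genes whose 3 log2 ratios lay nearest to the median of the haemoglobin genes were sought among 8725 other genes above the median level of each table. The distance was Euclidean over the 3 log2 ratios. The 8 nearest were Ube2l6 at 2.90, Spp1 at 3.09, Hmox1 at 3.34, Tmcc2 at 3.71, C1qb at 3.95, Fam174b at 3.98, Gm14303 at 3.99 and Fth1 at 4.00, against a median distance of 5.24 over all candidates. In endothelial cells Spp1, the secreted protein osteopontin, and Ube2l6 had log2 ratios of 2.80 and 2.79, against 4.57 for the haemoglobin median. At E11.5 the log2 ratio of Spp1 was 0.86, against -1.11 for the haemoglobin median. C1qb, a complement gene of macrophages with the lowest E11.5 log2 ratio of the 8 (-0.76), was not called in any comparison.

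Differences between comparisons were tested for genes outside the 8, as the difference of log2 ratios over its SE with Benjamini-Hochberg adjustment over all genes in both tables. Between endothelial cells and pericytes at E13.5, 4 of 41 tested erythroid genes differed, all with the higher ratio in endothelial cells (among them Ermap, Nfe2 and Ube2l6), in a test that called 2.95% of 16920 genes higher. Of 10 haem breakdown and iron genes, 5 differed in that direction, with Hmox1 at a difference of 1.99 (SE 0.33, adjusted p = 2.59e-06 by this normal test across all genes, not an exact or permutation test). Between the pericyte stages 0 of 40 erythroid genes differed by this test, which called 1.35% of all its genes higher and 0.0876% lower. At that share 0 of 40 is not read as a result. The E13.5 pericyte ratios enter both differences, so the 2 sets are not independent.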

How the data were processed

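Messenger RNA of sorted cells was made into libraries (KAPA kit) and sequenced (NovaSeq), per the labels' protocols. Per the submitters' processing notes, the tools were Bowtie2, DESeq2 and Partek and the build mm10, with no versions. No source used here gives the counting step, annotation, filters or model. The files are 3 tables of the authors' own comparisons, and the 8 genes and all gene lists were chosen with earlier results of these data known.

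Per the file headers, the authors give for each gene the 2 least-squares means, their ratio, a signed fold change (a deposited score, not used), a p-value and its step-up FDR. Each deposited mean was taken as a signal (mean normalized reads, of unstated scale). Depth is thus unknown for every library, and no counting interval or floor is given. No column of another sample was left out. The tables list 21860, 23792 and 20523 genes, with a deposited FDR for 19301, 20084 and 18132, and that FDR equals a recomputed Benjamini-Hochberg value. The text prints the authors' FDR as the DESeq2 adjusted p.

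The SE of a log2 ratio is that log2 ratio over the normal deviate of its two-sided p (a Wald test is assumed), and 95% intervals use 1.96 SE. p-values cover the spread among these samples alone, which may be technical. Shares divide a mean by the summed means, and levels per kilobase use GENCODE M21 transcript lengths. The genes named are the 8, those called in each list (up to 6 by p in endothelial cells, and any called in pericytes) and the 8 nearest by distance. Gata1, Klf1, Fech, Alas1 and Cygb were named after their values were seen. Some genes counted in the lists are not reported here by name. Of the steps, the test of differences between comparisons was also run on simulated data. All steps were run in Python 3.11.15 (scipy 1.17.1, pandas 2.3.3, numpy 2.4.6, matplotlib 3.10.9). Promoters are from RefSeq (GRCm38.p6).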

Additional observations from a re-analysis of the deposited data

Results flagged for a closer look

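Log2 ratios of mutant over control differed between endothelial cells and pericytes at E13.5, by a normal test of the difference adjusted over all genes, for genes of the blood-related lists. The haem breakdown and iron genes differed by 1.99 (Hmox1), 2.06 (Blvrb), 1.40 (Fth1), 1.11 (Ftl1) and 1.11 (Slc48a1). Among erythroid genes the differences included 3.43 (Ermap), 2.69 (Ube2l6) and 1.25 (Nfe2), and the platelet gene Pf4 differed by 1.79. In each the higher ratio was in endothelial cells. Spi1, a macrophage factor, had a log2 ratio 1.65 higher in E13.5 pericytes than in E11.5 pericytes. The sex difference named for E13.5 pericytes enters all of these values, and its part was not tested.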

How the results depend on the processing

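Of 68 alternative values, 50 stayed within their margin and 18 moved. The margin was 1.1 times for a share, 1.5 times for a count and the median implied SE of the genes for a log2 ratio. A change of direction could be recorded for the median log2 ratios alone, and 0 occurred. Leaving out 1 gene could not reverse a median, since all genes of a comparison shared a sign. That 0 is therefore not read as a result. At an FDR of 0.1 the calls in E11.5 pericytes numbered 1139, erythroid genes outside the 8 were 3 lower in E11.5 pericytes and 16 higher in endothelial cells, and 447 genes differed between the pericyte stages. With a log2 ratio of at least 1 the calls numbered 315, 17 and 247 in E11.5 pericytes, E13.5 pericytes and endothelial cells. Above the median level, 4 erythroid genes were higher in endothelial cells. The embryonic share of endothelial haemoglobin was 8.46% in mutants and 9.57% in controls among alpha-type genes, 85.4% in mutants and 70.8% in controls among beta-type genes, and 48.9% in mutants and 44.0% in controls with each near-identical pair counted once. The Hba-x share in E13.5 pericytes was 14.2% in mutants and 15.3% in controls with pairs counted once, and 10.5% in mutants and 11.7% in controls without division by length. Scaling and leaving out single genes kept the median log2 ratio between -1.14 and -1.09, 2.08 and 2.17, and 3.96 and 4.57 in E11.5 pericytes, E13.5 pericytes and endothelial cells. No paired analysis was possible because values per library were not analysed here, and leaving out single libraries was not run for the same reason. The moved values follow from the alternatives' own construction, which counts other genes or, for the share not divided by length, weights the same genes otherwise.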
